A study of Mus musculus with 8 samples.

Results

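Oxidative phosphorylation is carried out by 5 complexes of the inner mitochondrial membrane, and most of their subunits are encoded in the nucleus. The genes described here are those whose symbols start with Nduf followed by a, b, c, s or v and a digit, or with Uqcr, Atp5, Cox4, Cox5, Cox6, Cox7 or Cox8, together with Sdha, Sdhb, Sdhc and Sdhd. Symbols starting with Ndufaf, which name assembly factors, and the genes Ndufa4 and Cox5a were left out. This gave 85 of the 27405 genes in the 4 matrices. By symbol prefix, 38 belong to complex I, 4 to complex II, 8 to complex III, 18 to complex IV and 17 to complex V. The pseudogene Cox5b-ps and the paralogue Ndufa4l2 were kept because their symbols meet the rule.

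RNA was measured in single CD45+ cells, the leukocyte gate, sorted from tumours that the colon carcinoma line MC38 formed in wild-type mice. The groups were 2 control and 2 LNP-Sirpa libraries, and the labels place all 4 in 1 batch. The title of the series speaks of breaking down SIRPα, an inhibitory receptor of phagocytes, in the tumour, and LNP-Sirpa is the label of the treated group. The labels give neither the age of the mice nor what the controls received, and they do not say that libraries came from separate animals. The p-values of LNP-Sirpa against control within a type therefore measure the spread between libraries, which may be technical. The other p-values come from fits with the library as a block. They measure the spread left after the level of each library is taken out, which may be technical too.

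Complex I (NADH dehydrogenase, the Nduf genes) and complex II (succinate dehydrogenase, the Sdh genes) pass electrons to ubiquinone. Complex III (the Uqcr genes) passes them on to cytochrome c, and complex IV (cytochrome c oxidase, the Cox genes) hands them to oxygen. Complex V (ATP synthase, the Atp5 genes) uses the proton gradient that complexes I, III and IV build. A few further subunits of complexes I, III, IV and V are encoded by mitochondrial DNA, so these complexes are assembled from the products of both genomes. Resting and alternatively activated macrophages are known to rely on respiration more than classically activated ones, in which nitric oxide and itaconate restrain it. Neutrophils are known to have few mitochondria.

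The promoters below are shown for genes that the results below turn on, as the 250 bases before the RefSeq start on GRCm38.p6, written 5′ to 3′ on the gene's strand. Uqcrh (chr4:116075071-116075320, minus strand) and Cox6a1 (chr5:115348959-115349208, minus strand) hold motifs of NRF1 or of ETS factors, which are known to drive many nuclear respiratory genes, and these are in capitals. Cox7a1 (chr7:30183921-30184170, plus strand) is an isoform that was lower than in macrophages in 6 of the other 7 types, and Uqcrfs1 (chr13:30545317-30545566, minus strand) is the single subunit called after treatment.
Uqcrh: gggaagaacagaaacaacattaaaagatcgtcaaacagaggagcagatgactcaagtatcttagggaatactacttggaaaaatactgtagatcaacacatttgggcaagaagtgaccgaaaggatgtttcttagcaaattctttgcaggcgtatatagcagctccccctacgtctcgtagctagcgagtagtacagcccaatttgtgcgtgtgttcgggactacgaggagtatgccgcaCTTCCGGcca
Cox6a1: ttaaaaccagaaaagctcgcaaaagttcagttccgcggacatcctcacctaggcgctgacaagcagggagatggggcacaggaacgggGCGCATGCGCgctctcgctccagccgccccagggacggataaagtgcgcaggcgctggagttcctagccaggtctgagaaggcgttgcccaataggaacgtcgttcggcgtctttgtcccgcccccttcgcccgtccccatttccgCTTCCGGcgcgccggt
Cox7a1: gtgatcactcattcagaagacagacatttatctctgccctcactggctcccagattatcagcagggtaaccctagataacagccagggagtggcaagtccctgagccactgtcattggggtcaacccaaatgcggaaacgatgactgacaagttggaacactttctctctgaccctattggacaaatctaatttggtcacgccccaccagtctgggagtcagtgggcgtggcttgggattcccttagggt
Uqcrfs1: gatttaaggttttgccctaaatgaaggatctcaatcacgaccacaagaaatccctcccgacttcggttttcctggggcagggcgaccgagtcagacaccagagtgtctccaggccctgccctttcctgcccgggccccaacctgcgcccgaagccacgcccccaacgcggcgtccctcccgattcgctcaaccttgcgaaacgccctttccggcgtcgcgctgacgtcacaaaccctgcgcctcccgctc
The run CTTCCGG in the first pair is the reverse complement of the ETS motif CCGGAAG, and the run GCGCATGCGC of Cox6a1 holds the NRF1 motif GCGCATGC on both strands, overlapping. Both strands were searched for each motif. The NRF1 motif occurred in 8 of the 67 subunit genes with a RefSeq promoter entry (11.9%), against 2.32% of all 27025 genes with one. The ETS motif occurred in 11 of 67 (16.4%, against 7.05%), CCAAT in 30 of 67 (44.8%, against 34.5%), and the YY1 motif AAGATGGC in 0 of 67 (against 1.59%). Each gene was counted by its first entry. By any entry, ETS occurred in 12 (against 7.83% of all genes) and YY1 in 1 (against 1.83%). Uqcrfs1 and Cox7a1 held neither the NRF1 nor the ETS letters in this window. The median number of CG pairs was 14 in the windows of the subunit genes and 6 over all genes. The Cox7a1 window held 4 and that of Cox8b, another muscle-type isoform, held 1, while Uqcrfs1 held 23 and Cox6a1 26. A match is a run of letters and not a measured binding site.

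The matrices held 7511 and 10890 control cells and 10348 and 9008 LNP-Sirpa cells, with 68654004 to 90789729 unique molecular identifiers (UMIs, counts of single RNA molecules) per library. Cells were gated into 8 types by summed UMIs of marker genes, and 66.1% to 83.2% of the cells that passed the filters were gated. The lowest of these shares was that of LNP-Sirpa 1. Gated monocytes and macrophages, called macrophages below, were by far the largest type, with 4940 to 7727 cells per library. The other types held 28 to 427 cells per library, and cells with fibroblast markers, which a CD45+ sort should lack, numbered 227 to 414. Summed UMIs of the macrophage marker list reached 848 to 2839 CPM (UMIs scaled to a common total per sum) in the other types apart from neutrophils, where they reached 4848 to 7376, and 17460 to 26990 CPM in macrophages. The share of those counts in the other types that is free RNA was not tested. The libraries share 830 to 1242 cell names pair by pair, but these are serial names and not barcodes. Sirpa stood at 563 and 562 CPM in control macrophages and at 483 and 355 CPM in LNP-Sirpa macrophages, a log2 change of -0.30 ± 0.19 (SE) with an adjusted p of 0.45 in edgeR, so the targeted gene's RNA was not called. LNP-Sirpa 1 macrophages also held fewer ribosomal protein UMIs (16.4%) than those of the other libraries (20.17% to 20.97%).

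The 85 genes together took 1.92% to 2.51% of UMIs in every library of every type except neutrophils. Below, values by library are in the order control 1, control 2, LNP-Sirpa 1, LNP-Sirpa 2. In macrophages the share was 2.51%, 2.27%, 2.19% and 2.35%, with a mean of 2.33% ± 0.138 (SD, n = 4 libraries). In NK cells it was 2.31%, 2.27%, 2.20% and 2.21%, and in CD8 T cells 2.25%, 2.15%, 2.19% and 2.37%. These ranges overlapped that of macrophages. Regulatory T cells held 2.05% to 2.19%, other T cells 1.92% to 2.13%, dendritic cells 1.95% to 2.23%, and cells with fibroblast markers 2.14% to 2.45%. Neutrophils held 1.21%, 2.37%, 1.29% and 1.35%. The high value of control 2 came from 29 cells, of which the 3 deepest held 35.5% of the sum at 3.75% to 5.34% subunit UMIs each. Neutrophils were also the shallowest type, with a median of 1804 to 2304 UMIs per cell against 5523.5 to 6477 in macrophages.

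**Figure D1:**
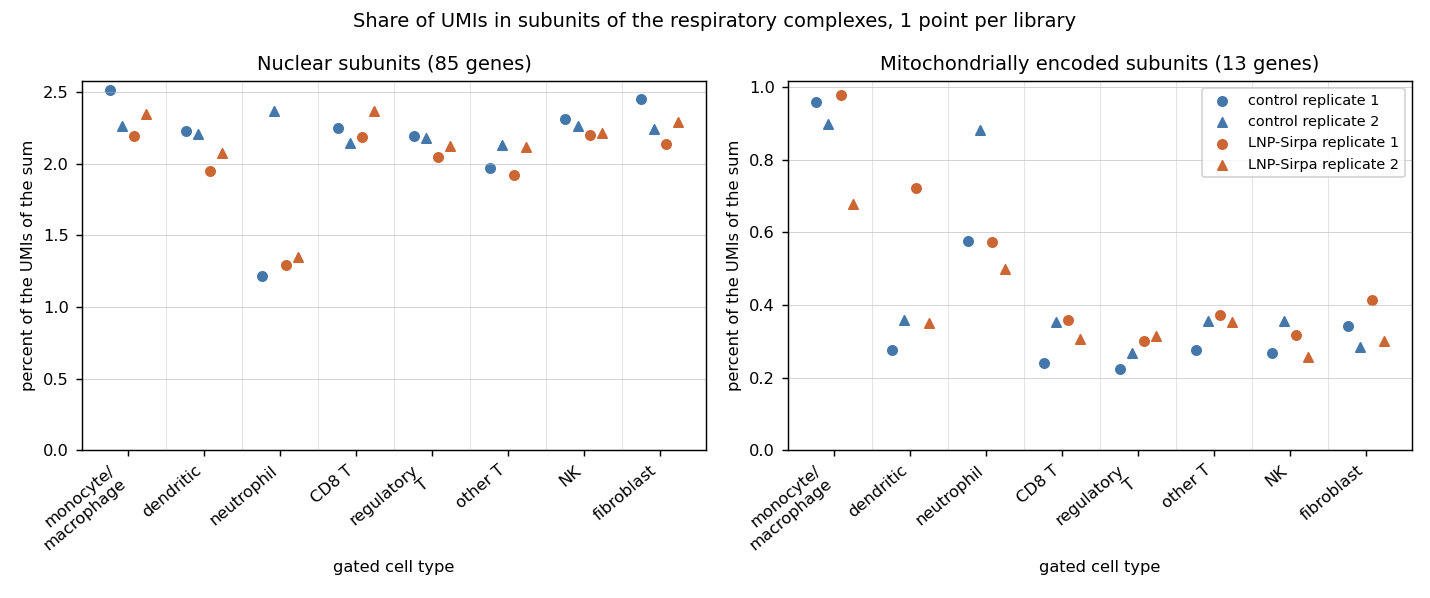
Percent of the UMIs of each gated type that fall in the 85 nuclear subunits (left) and in the 13 mitochondrially encoded ones (right), 1 point per library, circles for replicate 1 and triangles for replicate 2. Nuclear shares are close to 2% in all types but neutrophils, while the mitochondrially encoded share is highest in macrophages.

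The subunits encoded by mitochondrial DNA did not follow the nuclear ones. They took 0.958%, 0.899%, 0.979% and 0.678% of macrophage UMIs and 0.241% to 0.360% of CD8 T cell UMIs. Their UMIs per nuclear subunit UMI were 0.381, 0.397, 0.447 and 0.289 in macrophages and 0.371 to 0.474 in neutrophils. In every library the ratio was lower in CD8 T cells (0.107 to 0.165), regulatory T cells (0.102 to 0.148), other T cells (0.140 to 0.194), NK cells (0.116 to 0.157) and fibroblast-marked cells (0.127 to 0.193). In dendritic cells it was 0.124, 0.163, 0.370 and 0.169, with LNP-Sirpa 1 apart from the rest. In edgeR with the library as a block, all 11 of the mitochondrially encoded subunits that passed the filter on low counts were lower than in macrophages in dendritic, CD8 T, regulatory T, other T, NK and fibroblast-marked cells, with median log2 changes of -1.02, -1.44, -1.89, -1.62, -1.48 and -1.30. In neutrophils 3 of 11 were lower (median -0.45). mt-Co1, a catalytic subunit of complex IV, stood at 2839, 2838, 3144 and 2105 CPM in macrophages and at 613, 973, 1052 and 754 CPM in CD8 T cells (log2 change -1.71 ± 0.18, adjusted p = 5.96e-10). mt-Nd1 of complex I was lower there by a log2 change of -1.33 ± 0.19 (adjusted p = 1.18e-07).

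Nearly all subunits were detected in every type. All 4 libraries held UMIs of 81 of the 85 genes in macrophages and in fibroblast-marked cells, of 77 to 79 in the lymphocyte and dendritic gates and of 73 in neutrophils. Cox7b2, Cox8c and Ndufb11b had no UMI outside macrophages and at most 3 UMIs in any macrophage library. The order of the subunits by level was much the same across types: Spearman's rho of the mean CPM with that of macrophages, across the 85 genes, lay between 0.933 in fibroblast-marked cells and 0.975 in neutrophils. Genes are not independent replicates, differ in length and share their libraries, so this is a description.

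Each type was next compared with macrophages in 1 fit over all types, with the library as a block (edgeR quasi-likelihood test, Benjamini-Hochberg adjustment over 11002 genes, threshold 0.05). Of the 85 subunits, 78 passed the filter on low counts. The clearest difference was a lower level in neutrophils, regulatory T cells and other T cells. These were also the shallowest types, with median UMIs per cell of 2070, 4010 and 3752 as means over the libraries. CD8 T cells came next at 5817 and macrophages stood at 6102. The part of depth in the lower level was not tested. In neutrophils 54 of 78 subunits were lower and 0 higher, while 12.1% of all genes were lower and 14% higher. In regulatory T cells 42 were lower and 0 higher (all genes 24% and 20.6%), and in other T cells 42 were lower and 1 higher (all genes 23.2% and 20.5%). Without the scaling of the fit, the mean subunit share of UMIs was 1.55%, 2.14% and 2.03% in these types, against 2.33% in macrophages. In the fit, the median subunit minus the median of all genes came to -0.44, -0.33 and -0.36 on the log2 scale. Over the 12 settings run it lay between -0.644 and -0.213 in neutrophils, between -0.372 and 0.001 in regulatory T cells and between -0.398 and -0.0243 in other T cells, where both upper values came with no filter on low counts. Leaving out any 1 library left 36 to 59, 27 to 38 and 27 to 37 lower subunits, and 31, 21 and 25 subunits were called lower under each of the tested scalings and without each library.

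By complex, 25 of 36, 1 of 4, 7 of 8, 9 of 13 and 12 of 17 subunits of complexes I to V were lower in neutrophils, 22, 1, 3, 8 and 8 in regulatory T cells, and 21, 2, 5, 7 and 7 in other T cells. In the remaining types the subunits went both ways. In CD8 T cells 5 of 78 were higher and 17 lower (27.5% and 26.6% of all genes), with a median of -0.145 relative to all genes. In NK cells 16 were higher and 7 lower (25.3% and 25.3%), in dendritic cells 7 and 8 (17.8% and 18.4%), and in fibroblast-marked cells 22 and 15 (37.8% and 32.8%). The relative medians of these 3 types were 0.01, -0.02 and -0.01. How the calls split moved with the scaling and with the neutrophil gate. A higher threshold of that gate is counted here among the tested scalings. With a higher marker threshold for neutrophils, which moves the median of all genes in fibroblast-marked cells from 0.08 to 0.44, the splits became 51 higher and 2 lower in fibroblast-marked cells, 30 and 4 in NK cells, 18 and 5 in CD8 T cells and 9 and 2 in dendritic cells. Relative to the median of all genes, the subunit medians ran over the 12 settings from -0.175 to 0.0665 in CD8 T, -0.0333 to 0.337 in NK, -0.0845 to 0.217 in dendritic and -0.0467 to 0.258 in fibroblast-marked cells, each highest with no filter on low counts. With mitochondrial and ribosomal genes left out before scaling, the splits were 13 and 20 in fibroblast-marked, 11 and 8 in NK and 3 and 18 in CD8 T cells. With DESeq2 size factors they were 26 and 12 in fibroblast-marked cells and 8 and 15 in CD8 T cells. Under each of these scalings and without each library, 2 higher and 5 lower calls held in CD8 T cells, 4 and 4 in NK cells, 4 and 2 in dendritic cells and 11 and 2 in fibroblast-marked cells. Over the 7 types, 41 of the 78 subunits were called only lower, 8 only higher, 26 in both directions and 3 in none. The same count was not made over all genes, of which 12.1% to 37.8% were called per direction and type. It is therefore a description and cannot set the subunits apart from other genes.

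**Figure D2:**
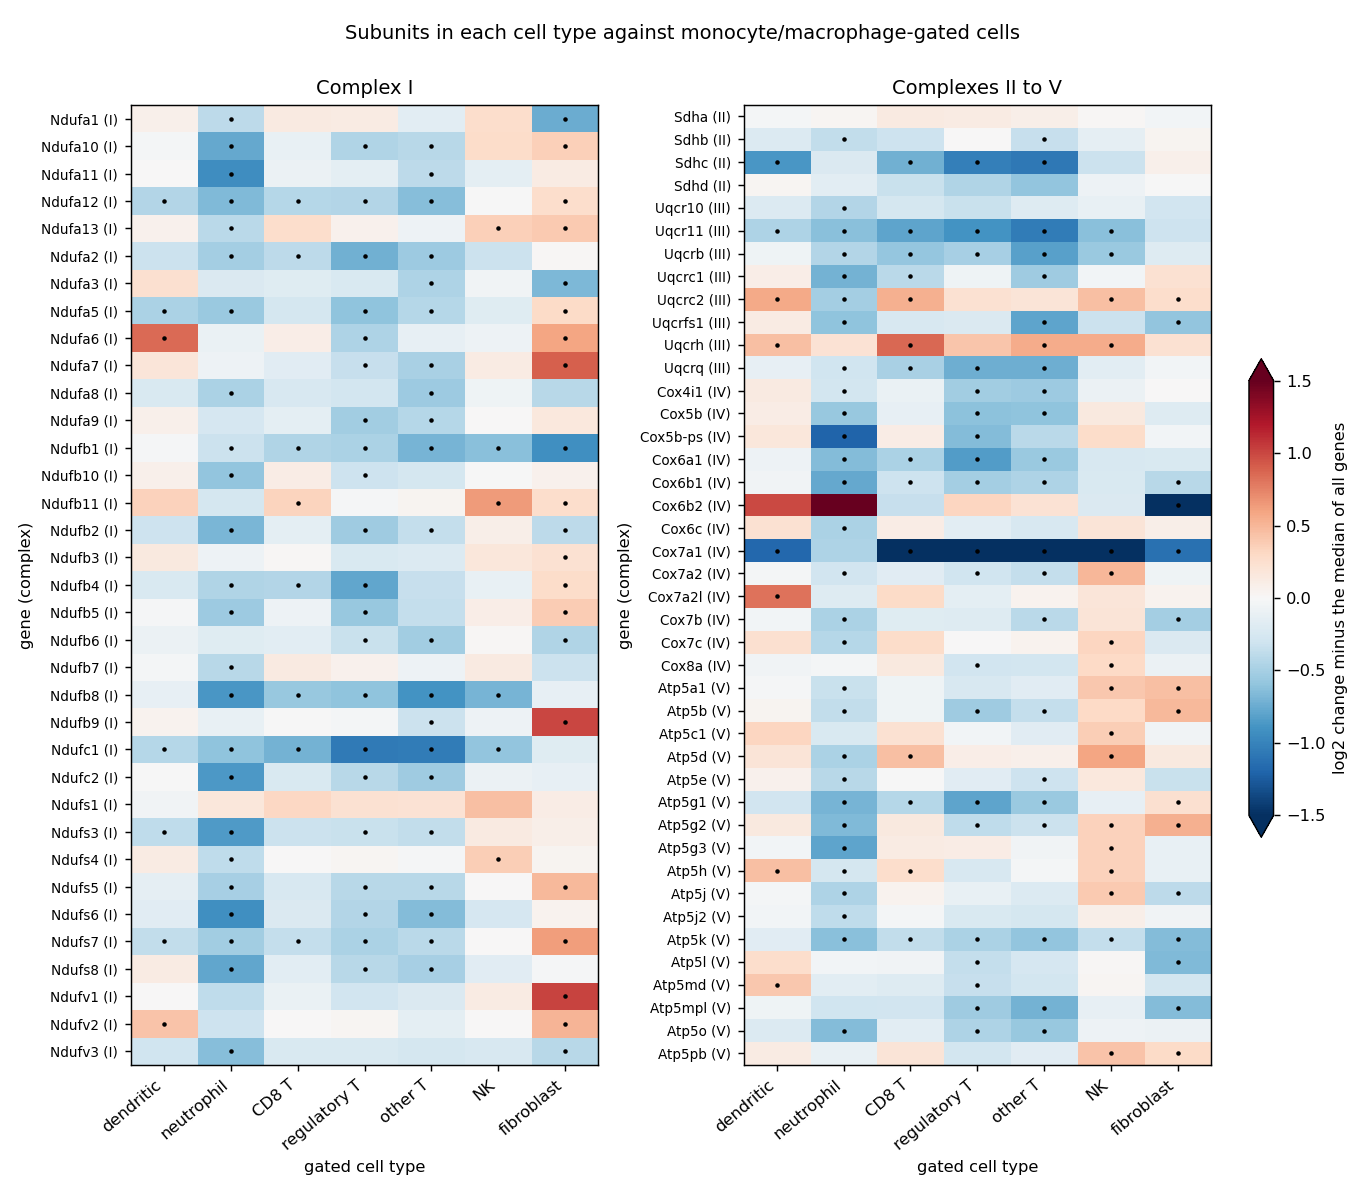
Log2 change of tested subunits in each type against macrophages, minus the median change of all genes, with complex I on the left and complexes II to V on the right. Dots mark genes past the threshold, the colour scale ends at 1.5 in either direction, and neutrophils, regulatory T and other T cells are mostly blue (54, 42 and 42 lower subunits).

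Within complex I, 16 of 36 subunits were higher and 6 lower in fibroblast-marked cells (37.8% and 32.8% of all genes), with a median log2 change of 0.19. Ndufv1, the flavin-bearing subunit, stood at 79.5, 69.8, 53.3 and 50.7 CPM in macrophages and at 155, 138, 102.7 and 110.5 CPM in fibroblast-marked cells. Every library was higher in the latter, a log2 change of 1.09 ± 0.14 (adjusted p = 3.5e-09). Ndufb9, an accessory subunit of the membrane arm, stood at 213, 190, 185 and 197 CPM in macrophages and at 412, 399, 418 and 342 CPM in fibroblast-marked cells (1.09 ± 0.14, adjusted p = 2.7e-09). Ndufa7 (0.97) and Ndufs7 (0.70) were also higher there, while both were lower in regulatory T and other T cells (-0.54 to -0.39), and Ndufb1 (-0.84) and Ndufa1 (-0.67) were lower in fibroblast-marked cells. The calls of Ndufv1, Ndufb9, Ndufa7, Ndufs7 and Ndufb1 held under each tested scaling and without each library, and that of Ndufa1 did not.

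In the T cell gates 22 of 36 complex I subunits were lower in regulatory T cells (24% of all genes) and 21 in other T cells (23.2%). In CD8 T cells 7 were lower (26.6%) and 1 was higher (27.5%). Ndufc1 stood at 262, 262, 275 and 286 CPM in macrophages and at 163, 138, 147 and 153 CPM in regulatory T cells, with no overlap between the types (log2 change -1.11 ± 0.19, adjusted p = 3.7e-06). It was also lower in other T cells (-1.10), CD8 T cells (-0.69), NK cells (-0.56), neutrophils (-0.72) and dendritic cells (-0.45). Ndufb8, whose protein is often used as a marker of assembled complex I, stood at 106.8, 217.5, 110.8 and 105.5 CPM in neutrophils against 239.5 to 339.5 CPM in macrophages, where it was lowest in LNP-Sirpa 1, and was lower in neutrophils (adjusted p = 1.2e-05), other T cells (log2 change -0.95), NK cells (-0.68), regulatory T cells (-0.65) and CD8 T cells (-0.54). In neutrophils Ndufa11, at 74.7, 93.2, 108 and 116 CPM against 228 to 259 CPM in macrophages, was lower by a log2 change of -1.05 ± 0.16 (adjusted p = 2.6e-06), and Ndufs6 by -1.04. Ndufa2 was lower in regulatory T cells (-0.76), neutrophils (-0.64), other T (-0.60) and CD8 T cells (-0.37). Ndufb1 was lower in all types but dendritic cells (-0.84 to -0.44), and Ndufa12 in all but NK and fibroblast-marked cells (-0.78 to -0.41). Ndufb11 was higher in NK (0.66), CD8 T (0.35) and fibroblast-marked cells (0.34). The largest core subunit, Ndufs1, was called in no type, with changes of -0.07 to 0.48. Ndufa6 was higher in dendritic cells, at 548, 540, 502 and 472 CPM against 304 to 330 CPM in macrophages (0.83 ± 0.14, adjusted p = 7.0e-06).

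In complex II, which is also an enzyme of the citric acid cycle, 1 of the 4 subunits carried most of the calls. Sdhc, 1 of the membrane anchors, stood at 161.8, 131.8, 123.1 and 111.5 CPM in macrophages, at 67.3, 68.4, 61.5 and 51.3 CPM in dendritic cells and at 97.7, 67.1, 61.9 and 61.4 CPM in other T cells. All libraries of dendritic and other T cells lay below all macrophage libraries. The log2 changes were -0.89 in dendritic cells, -0.70 in CD8 T cells, -1.07 in regulatory T cells and -1.12 in other T cells, all called, and 0.15 in fibroblast-marked cells, not called. Sdha, the catalytic flavoprotein, was called in no type (-0.09 to 0.16), nor was Sdhd, the other anchor (-0.65 to 0.08). Sdhb, the iron-sulphur subunit, was lower in neutrophils (-0.49) and other T cells (-0.39).

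Complex III held subunits that were higher and subunits that were lower in the lymphoid types. Uqcrh, the hinge subunit that contacts cytochrome c, stood at 451.7, 444.8, 414.5 and 419.4 CPM in macrophages and at 850, 829, 746 and 773 CPM in CD8 T cells. Every CD8 T cell library was above every macrophage library (log2 change 0.88 ± 0.17, adjusted p = 2.2e-05). It was also higher in NK cells (0.58), other T cells (0.51) and dendritic cells (0.44), and its call in CD8 T and NK cells held under each tested scaling and without each library. Uqcrc2, a core subunit, was higher in CD8 T cells (0.56), dendritic cells (0.55), NK cells (0.48) and fibroblast-marked cells (0.34) and lower in neutrophils (-0.63). Its partner Uqcrc1 was lower in neutrophils (-0.84), other T cells (-0.59) and CD8 T cells (-0.38). Uqcrfs1, the Rieske iron-sulphur protein, was lower in other T cells (-0.84), neutrophils (-0.73) and fibroblast-marked cells (-0.51). Uqcr11, a small accessory subunit, stood at 417, 338, 312 and 333 CPM in macrophages and at 208.3, 192.8, 173.2 and 179.5 CPM in other T cells (-1.10 ± 0.17, adjusted p = 9.4e-07). It was also lower in regulatory T cells (-0.94), CD8 T cells (-0.77), neutrophils (-0.75), NK cells (-0.60) and dendritic cells (-0.48). Uqcrb, which binds ubiquinone, was lower in other T (-0.87), CD8 T (-0.56), neutrophil (-0.56), regulatory T (-0.54) and NK cells (-0.53), and Uqcrq was lower in other T (-0.79) and regulatory T cells (-0.78).

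**Figure D3:**
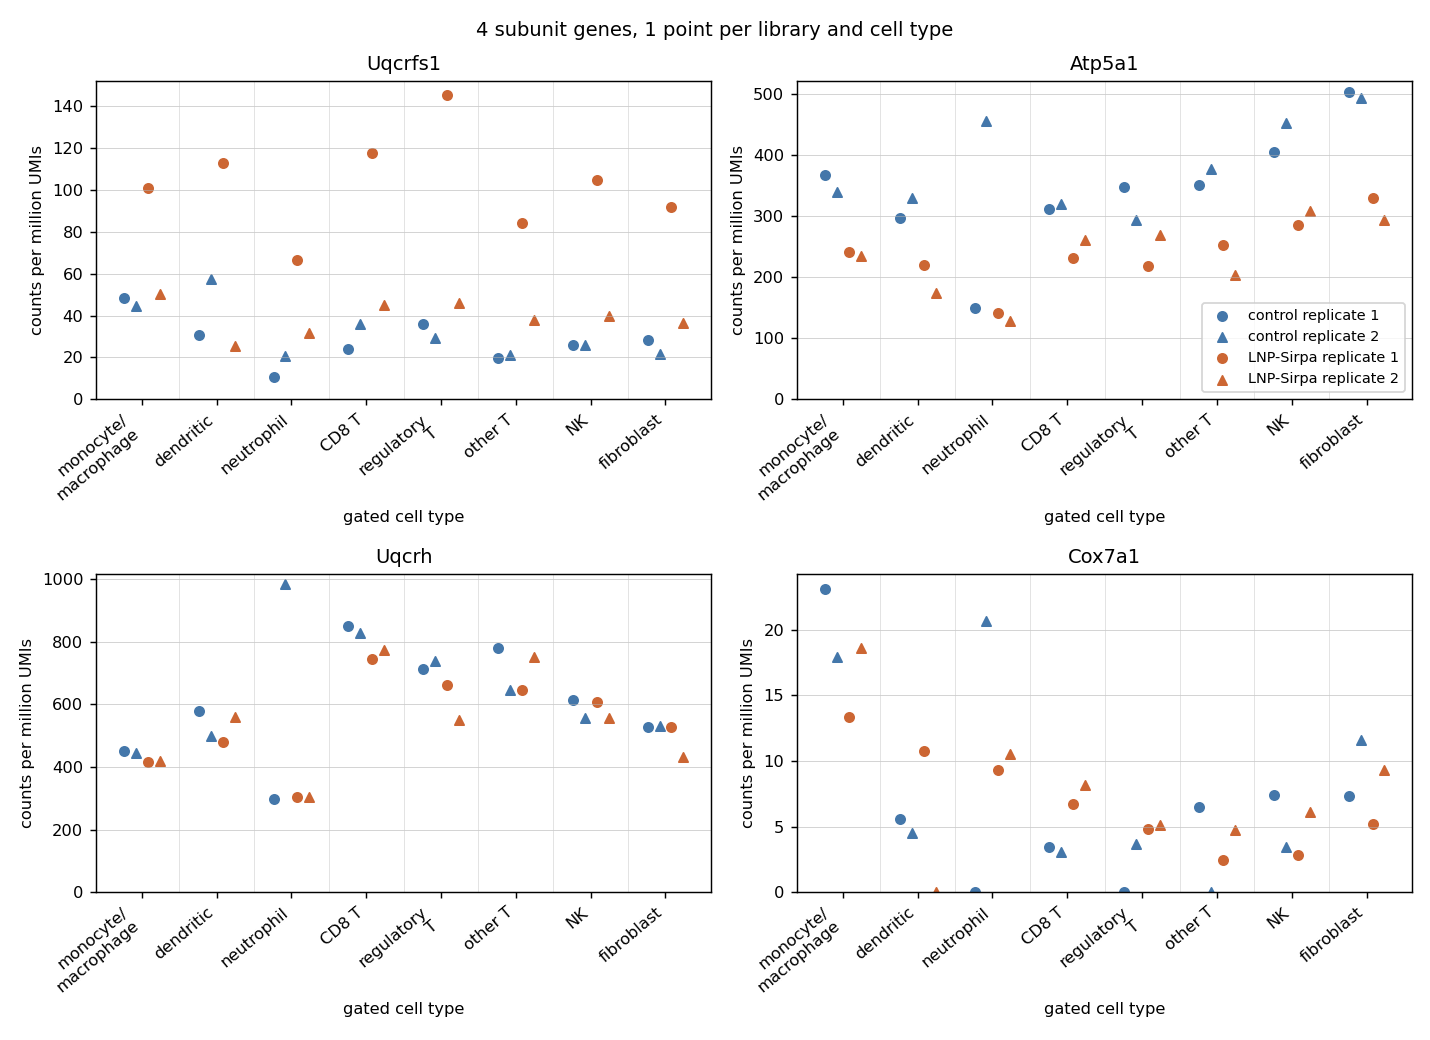
CPM of Uqcrfs1, Atp5a1, Uqcrh and Cox7a1 in each gated type, 1 point per library, blue for control and orange for LNP-Sirpa, circles for replicate 1 and triangles for replicate 2. Uqcrfs1 is high in LNP-Sirpa 1 in every type (101 CPM in macrophages against 44.6 to 50.2 in the other libraries), and Cox7a1 reaches the macrophage range (13.3 to 23.1 CPM) elsewhere in 1 neutrophil library alone (20.7 CPM).

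In complex IV, 9 of 13 subunits were lower in neutrophils (12.1% of all genes), 8 in regulatory T (24%) and 7 in other T cells (23.2%). In CD8 T cells 3 were lower (26.6%), and in fibroblast-marked cells 4 (32.8%). In NK cells 1 was lower and 3 were higher (25.3% and 25.3%), and in dendritic cells 1 was lower and 1 higher (18.4% and 17.8%). Cox4i1, the regulatory subunit found in most tissues, stood at 1208, 1137, 972 and 1079 CPM in macrophages and was lower in other T cells (-0.60), regulatory T cells (-0.57) and neutrophils (-0.40). Cox5b was lower in the same types (-0.66, -0.66 and -0.69). Cox6a1 was lower in regulatory T cells (-0.88), neutrophils (-0.78), other T cells (-0.60) and CD8 T cells (-0.45). Cox6b1, which lies at the cytochrome c side, was lower in neutrophils (-0.89), regulatory T (-0.55), other T (-0.52), fibroblast-marked (-0.34) and CD8 T cells (-0.29). Cox7a2 was higher in NK cells (0.53) and lower in neutrophils (-0.41), other T (-0.40) and regulatory T cells (-0.34), and Cox6c was called in neutrophils alone (-0.59). Cox7c and Cox8a were higher in NK cells (0.35 and 0.33), Cox7c was lower in neutrophils (-0.55), and Cox8a was lower in regulatory T cells (-0.34). Cox7a2l, which joins complexes III and IV into supercomplexes, stood at 340, 320, 264 and 267 CPM in dendritic cells against 157 to 209 CPM in macrophages, where no library reached the dendritic values (0.80 ± 0.15, adjusted p = 4.4e-05). Cox5b-ps was lower in neutrophils (-1.32) and regulatory T cells (-0.69), but reads of a pseudogene and of Cox5b can be hard to tell apart.

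Isoforms of complex IV known from muscle, lung or testis were detected at low levels, and macrophages held more of the muscle-type Cox7a1 than lymphocytes did. Cox7a1 stood at 23.1, 17.9, 13.3 and 18.6 CPM in macrophages and at 3.43, 3.04, 6.74 and 8.18 CPM in CD8 T cells, from 462 to 1051 and 1 to 21 UMIs per library. It was lower in dendritic (-1.19), CD8 T (-1.52), regulatory T (-2.25), other T (-2.63), NK (-1.73) and fibroblast-marked cells (-1.04), and its change in neutrophils was -0.59 and not called. The calls in dendritic, CD8 T, regulatory T, other T, NK and fibroblast-marked cells held under each tested scaling and without each library. Of the UMIs of Cox7a1 and its common counterpart Cox7a2, Cox7a1 made up 3.95% in macrophages (exact 95% interval 3.82% to 4.08% over the pooled libraries, 2.88% to 4.68% by library), 1.83% in fibroblast-marked cells (1.57% to 2.13%), 1.43% in CD8 T cells (1.03% to 1.92%) and 0.75% in NK cells (0.459% to 1.16%). The intervals cover counting error only. Pooled shares at these levels can hold free macrophage RNA, and the macrophage marker list stood at 1382 to 2199 CPM in the NK sums.

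Cox4i2, an isoform known for its response to low oxygen, made up 0.852% of the UMIs of Cox4i1 and Cox4i2 in macrophages (exact 95% interval 0.813% to 0.893%) and 0.0766% in fibroblast-marked cells (0.0454% to 0.121%). Its share was 1.09% in neutrophils and 0.8475% in other T cells, from 11 and 13 UMIs, and 0.0957% to 0.287% in dendritic, CD8 T, regulatory T and NK cells. By library its macrophage levels were 6.84, 8.17, 6.29 and 16.0 CPM, with LNP-Sirpa 2 apart from the rest. Cox6b2, known from testis, stood at 5.59, 4.32, 3.17 and 0.814 CPM in macrophages and rested on 1 or 2 UMIs per library in fibroblast-marked cells, a log2 change of -3.76 ± 0.60 (adjusted p = 5.2e-07). Of the UMIs of Cox6b1 and Cox6b2 it made up 0.672% in macrophages and 0.0607% in fibroblast-marked cells. In dendritic cells it made up 1.56%, and in the remaining types 0.5005% (CD8 T cells) to 2.75% (neutrophils, from 11 UMIs). Cox6a2, the muscle-type counterpart of Cox6a1, made up 1.16%, 1.41%, 1.08% and 0.650% of the pair in macrophages, 0.448%, 0.667%, 2.21% and 0.797% in fibroblast-marked cells and 0%, 0%, 0.639% and 0.157% in CD8 T cells. LNP-Sirpa 1 stood apart in the last 2 types, whose pooled shares were 1.02% and 0.336% with it and 0.599% and 0.0872% without it. It was at 0 of 546 UMIs of the pair in regulatory T cells, which allows up to 0.673% by the exact interval. Cox8b reached at most 2 UMIs in any macrophage library.

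In complex V, 8 of 17 subunits were higher in NK cells and 1 lower (25.3% and 25.3% of all genes), with a median log2 change of 0.32. Of these NK calls only that of Atp5d held under each tested scaling and without each library, and over all complexes the 16 higher calls in NK cells became 5 to 6 when any 1 library was left out. Atp5d, the delta subunit of the catalytic head, stood at 511, 444, 568 and 631 CPM in NK cells and at 408, 390, 344 and 400 CPM in macrophages (0.62 ± 0.15, adjusted p = 8.0e-04), and was higher in CD8 T cells by 0.47 and lower in neutrophils (-0.59). Atp5pb of the peripheral stalk was higher in NK (0.45) and fibroblast-marked cells (0.37). Atp5j was higher in NK cells (0.42) and lower in neutrophils (-0.59) and fibroblast-marked cells (-0.31). Atp5b, the catalytic beta subunit, was higher in fibroblast-marked cells (0.56) and lower in regulatory T cells (-0.58), neutrophils (-0.49) and other T cells (-0.41). Atp5g1, 1 of 3 genes for the same rotor protein, was lower in regulatory T (-0.84), neutrophil (-0.82), other T (-0.61) and CD8 T cells (-0.41) and higher in fibroblast-marked cells (0.32). The other genes for this protein gave other calls: Atp5g2 was higher in fibroblast-marked (0.61) and NK cells (0.37) and lower in neutrophils (-0.79), regulatory T (-0.43) and other T cells (-0.37), and Atp5g3 was higher in NK cells (0.38) and lower in neutrophils (-0.91). The small membrane subunit Atp5k was lower in all types but dendritic cells (-0.75 to -0.33), Atp5mpl in other T (-0.76), regulatory T (-0.58) and fibroblast-marked cells (-0.57) and Atp5l in fibroblast-marked (-0.58) and regulatory T cells (-0.40). Atp5h of the peripheral stalk was higher in dendritic (0.43), NK (0.37) and CD8 T cells (0.29) and lower in neutrophils (-0.39), and its call in dendritic cells held under each tested scaling and without each library.

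Other gene lists show what else differed from macrophages in the same fit. In neutrophils 38 of 77 mitochondrial ribosomal proteins and 80 of 84 cytosolic ribosomal proteins were lower, beside the 54 of 78 subunits and 12.1% of all genes. In fibroblast-marked cells 47 of 77 mitochondrial ribosomal proteins, 25 of 43 assembly factors of the complexes and 12 of 18 genes of the citric acid cycle and pyruvate dehydrogenase were higher, beside 37.8% of all genes. In NK cells these counts were 21 of 77, 13 of 43 and 9 of 18, beside 25.3% of all genes. In regulatory T cells 21 of 77, 5 of 43 and 3 of 18 genes of the same lists were lower, and 2, 5 and 1 were higher, beside 24% and 20.6% of all genes. Of 14 electron carriers and mitochondrial transporters, 8 were lower and 1 higher in regulatory T cells, and 7 were higher and 3 lower in fibroblast-marked cells. Of 12 regulators of mitochondrial biogenesis, 6 were higher and 2 lower in NK cells. Of 16 glycolysis genes, 1 was higher and 12 lower in dendritic cells (17.8% and 18.4% of all genes), 2 and 5 in neutrophils (14% and 12.1%), 1 and 8 in CD8 T cells (27.5% and 26.6%), 1 and 7 in regulatory T cells (20.6% and 24%), 1 and 12 in other T cells (20.5% and 23.2%), 0 and 9 in NK cells (25.3% and 25.3%) and 2 and 8 in fibroblast-marked cells (37.8% and 32.8%).

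LNP-Sirpa was compared with control within each type, to ask whether the subunits changed with the treatment. In macrophages 0 of the 81 subunits that passed the filter were called in edgeR, where 1.62% of all 15986 genes were, and 5 had an unadjusted p under 0.05, while DESeq2 called 1, Uqcrfs1. The median change of the subunits was 0.05 and that of all genes -0.01, with 48 positive and 33 negative. This subunit median turned with the library left out: it was 0.23 without LNP-Sirpa 1 and -0.15 without LNP-Sirpa 2. The make-up of the gate moved with the treatment. Cells of the monocyte subset, with more monocyte than macrophage marker UMIs, made up 1.80% and 0.686% of it in control and 12.02% and 10.02% in LNP-Sirpa libraries. The macrophage marker list stood at 24855 and 26987 against 17459 and 17874 CPM, and the neutrophil list at 119 and 124 against 328 and 341 CPM. In the macrophage subset alone 0 subunits were called in edgeR and the median was 0.05, while in the monocyte subset alone 1 was lower, Cox6a2, and the median was -0.11.

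The other types gave 1 call in all. In dendritic cells 0 of 76 subunits were called (2.08% of all genes) and 7 had an unadjusted p under 0.05, with 69 of 76 changes negative and a median of -0.24 against -0.02 for all genes. LNP-Sirpa 2 held 28 dendritic cells. Over the fits that each left out 1 library, the subunit median ran from -0.335 to -0.162. In neutrophils 0 of 71 were called (0.932%), with a median of -0.34 that became 0.60 with the higher marker threshold. In CD8 T cells 0 of 77 were called (0.565%), in regulatory T cells 0 of 75 (0.409%), in other T cells 0 of 76 (0.254%) and in fibroblast-marked cells 0 of 79 (0.349%). Unadjusted p-values under 0.05 numbered 2 in neutrophils, 2 in CD8 T, 5 in regulatory T, 4 in other T and 6 in fibroblast-marked cells. DESeq2 called 1 subunit in fibroblast-marked cells, again Uqcrfs1, and 0 in the other 6 types. In NK cells 1 of 76 was called (0.86%), with 6 under an unadjusted p of 0.05, 59 of 76 changes negative and a median of -0.14 against -0.01 for all genes. The medians of CD8 T, regulatory T, other T and fibroblast-marked cells were 0.06, -0.15, -0.10 and -0.02. These sums do not separate fewer cells with a transcript from less transcript per cell, which was not tested.

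**Figure D4:**
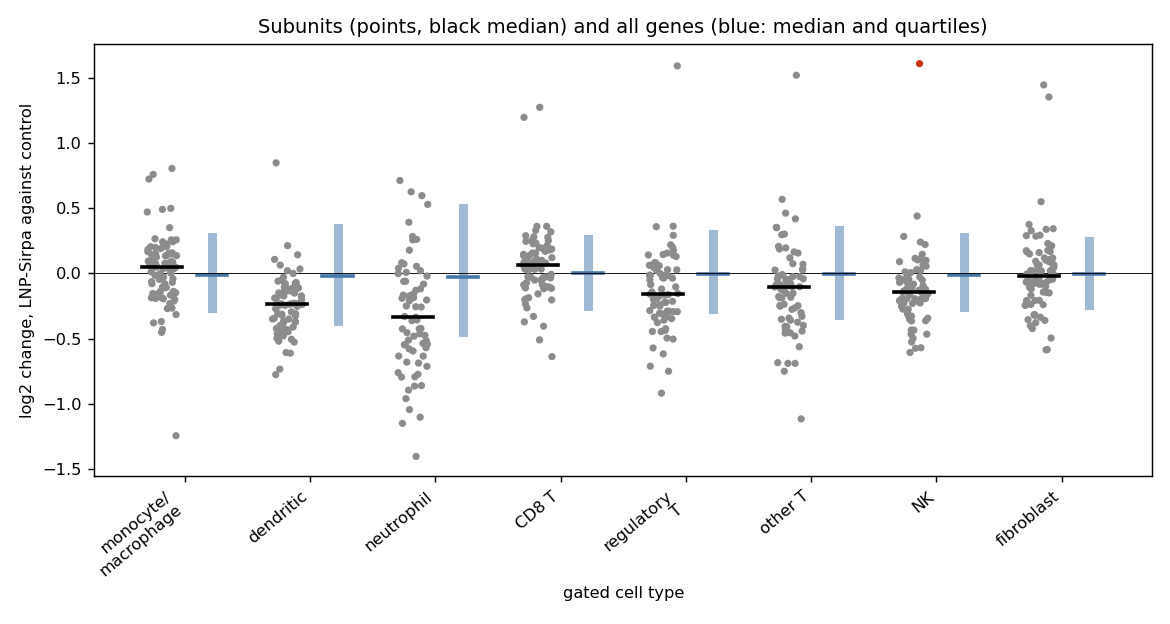
Log2 change after LNP-Sirpa of each tested subunit (points, with the black line at their median) and, in blue, the median and quartiles of all genes tested in that type. The red point is Uqcrfs1 in NK cells, the single subunit past the threshold.

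The call in NK cells was Uqcrfs1 of complex III. It stood at 26.03 and 25.8 CPM in the control and at 104.5 and 39.6 CPM in the LNP-Sirpa libraries, from 35, 15, 222 and 13 UMIs. Both LNP-Sirpa libraries were above both controls, and LNP-Sirpa 1 was far above LNP-Sirpa 2. The log2 change was 1.61 ± 0.35 (adjusted p = 0.0354), and it fell to 0.63 without LNP-Sirpa 1. It was not called by DESeq2 (adjusted p = 0.36) or with the replicate number as a block (1.53, adjusted p = 0.0503). In macrophages Uqcrfs1 stood at 48.2, 44.6, 101 and 50.2 CPM (0.81 ± 0.26, adjusted p = 0.166). In regulatory T cells it stood at 35.8, 29.1, 145 and 45.9 CPM (1.59 ± 0.59, adjusted p = 0.481), and in fibroblast-marked cells at 28.4, 21.5, 91.6 and 36.7 CPM (1.45 ± 0.40, adjusted p = 0.267). LNP-Sirpa 1 was the highest library in all 8 types. Its macrophages also held the lowest ribosomal protein share, and the part of such library differences in this result was not tested. The types share their libraries, so they are not independent observations.

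Atp5a1, the alpha subunit of the catalytic head of ATP synthase, had negative changes in all 8 types without a call. It stood at 368, 339, 241 and 235 CPM in macrophages (-0.43 ± 0.17, adjusted p = 0.241, and -0.71 to -0.33 over the alternatives run), at 503, 493, 330 and 294 CPM in fibroblast-marked cells (-0.59 ± 0.17, adjusted p = 0.25) and at 406, 452, 286 and 308 CPM in NK cells (-0.57 ± 0.19, adjusted p = 0.207). The 2 LNP-Sirpa libraries lay close together and below both controls in each of these types. The Sdh genes were alike in sign: all 31 of their changes over 8 types were negative, from -1.15 to -0.05, and none was called. Of the 71 subunits tested in all 8 types, 13 (18.3%) were negative and 1 (1.41%) positive in every type, against 4.59% and 10.4% of all 2963 such genes. The types share their libraries, so these are descriptions. Sdha stood at 76.0, 72.2, 60.3 and 48.5 CPM in macrophages (-0.32 ± 0.14, adjusted p = 0.265) and at 117.5, 105.4, 62.9 and 56.0 CPM in regulatory T cells (-0.92 ± 0.32, adjusted p = 0.329). Ndufv1 was negative in all 8 types too, at -0.38 ± 0.14 in macrophages (adjusted p = 0.215), and Ndufb1 was positive in all 8, at 0.49 ± 0.19 in macrophages (adjusted p = 0.219). Across the 77 macrophage subunits with a transcript length in GENCODE vM21, Spearman's rho of the change with length was -0.23, a description across genes.

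Some other genes of energy metabolism rose in macrophages after the treatment. Of 12 modulators of respiration, 3 were higher and 11 had positive changes (1.62% of all genes were called). The part of the shift in monocyte and neutrophil markers in these changes was not tested. Nos2, the inducible nitric oxide synthase, stood at 8.93 and 14.3 CPM in control and at 153 and 130 CPM in LNP-Sirpa macrophages (log2 change 3.73 ± 0.28, adjusted p = 0.0146). Acod1, which makes itaconate, an inhibitor of succinate dehydrogenase, stood at 77.6, 137, 449 and 366 CPM (2.04 ± 0.31, adjusted p = 0.0447), and Hif1a was higher by 1.45 ± 0.17 (adjusted p = 0.0334). Of 16 glycolysis genes, 15 had positive changes and 1 was called, Pfkp (0.99 ± 0.16, adjusted p = 0.0465). None of the 13 mitochondrially encoded subunits, 46 assembly factors, 18 citric acid cycle genes, 14 carriers and transporters, 16 regulators of biogenesis, 77 mitochondrial and 85 cytosolic ribosomal proteins was called by edgeR, with 0, 7, 3, 2, 1, 3 and 2 at an unadjusted p under 0.05. DESeq2 called 0, 5, 2, 1, 0, 2 and 1 of them. All 8 genes of the cycling list had negative changes, none called by edgeR, 6 at an unadjusted p under 0.05 and 4 called lower by DESeq2. Of 11 dissociation stress genes 7 had negative changes, with none called by either tool and 0 at an unadjusted p under 0.05.

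Whether the treatment change of a subunit differed between a type and macrophages was tested as an interaction over 79 subunits. None was called in edgeR in dendritic cells (0.181% of all genes called), neutrophils (0.428%), CD8 T cells (0.354%), regulatory T cells (0.148%), other T cells (0%), NK cells (0.338%) or fibroblast-marked cells (0.89%). At an unadjusted p under 0.05 there were 5, 4, 1, 1, 1, 1 and 0 subunits in these types. Without control 1, Uqcrh was called lower in neutrophils. DESeq2 size factors in place of TMM also gave 0 calls in each type.

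Cycling cells, defined by at least 3 UMIs of a proliferation list, made up 29.5%, 19.7%, 15.6% and 16.7% of macrophages. Their subunit share was 2.65%, 2.44%, 2.34% and 2.47%, against 2.42%, 2.19%, 2.14% and 2.30% in the other macrophages, so it was higher in each library. Cycling macrophages were deeper, with a median of 9624 to 11075 UMIs against 5014 to 5841.5. In edgeR with the library as a block, 16 of 81 subunits were higher and 7 lower in cycling macrophages, where 16.3% of all genes were higher and 20.2% lower. The differences were small: the highest were Ndufa5 (0.27 ± 0.046, adjusted p = 1.22e-05), Uqcr10 (0.25), Ndufb11 (0.24), Ndufv1 (0.22) and Atp5o (0.22). The subunit median was 0.06 and that of all genes -0.03. Ndufa4l2, a paralogue known to be induced by hypoxia, was much lower (-2.63 ± 0.29, adjusted p = 1.17e-08), from 56 to 136 UMIs per library, and Uqcrh (-0.14), Cox6a2 (-0.45) and Cox7a2l (-0.12) were also lower. Without control 2 the counts were 9 higher and 1 lower, and without LNP-Sirpa 2 they were 23 and 3. In CD8 T cells 3 of 76 subunits were higher (6.57% of all genes) and 1 lower (5.2%): Ndufa5 (0.41), Atp5o (0.39) and Cox5b (0.35), and Uqcrh (-0.33). Control 1 held only 5 cycling CD8 T cells, and without either LNP-Sirpa library no subunit was called.

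The genes beside the subunits went different ways in the 2 cycling types. In macrophages 7 of 12 mitochondrially encoded subunits and 27 of 77 mitochondrial ribosomal proteins were higher (16.3% of all genes). There 15 of 16 glycolysis genes and 28 of 85 cytosolic ribosomal proteins were lower (20.2% of all genes). In CD8 T cells 5 of 11 mitochondrially encoded subunits were lower (5.2% of all genes), mt-Co1 by -0.62 ± 0.11 (adjusted p = 9.33e-06), and 0 were higher. By library these subunits took 0.246%, 0.200%, 0.341% and 0.262% of the UMIs of cycling CD8 T cells. In the other CD8 T cells they took 0.239%, 0.3945%, 0.372% and 0.327%. The share was thus not lower in control 1, which held 5 cycling cells, and fell most in control 2. The difference between the types was not tested. Of the dissociation stress genes, 10 of 11 were lower in cycling macrophages (20.2% of all genes) and 8 of 11 in cycling CD8 T cells (5.2%).

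**Figure D5:**
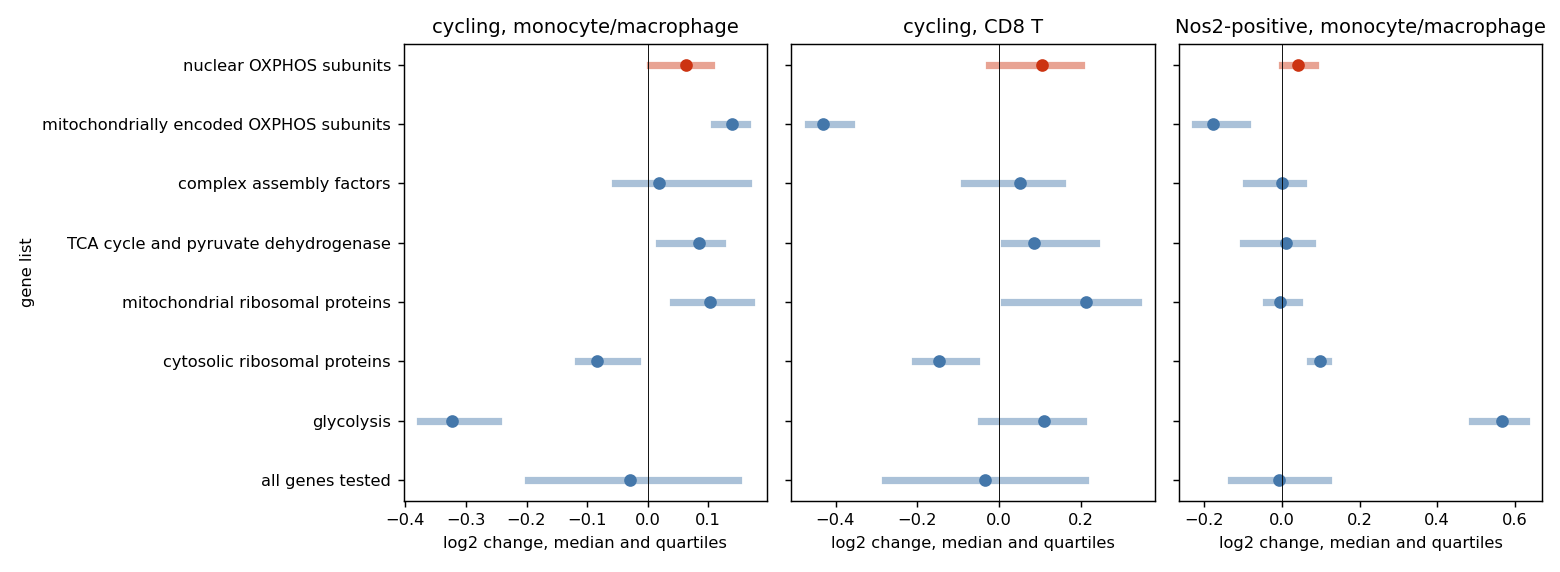
Median (point) and quartiles (bar) of the log2 change of each gene list in cycling macrophages, cycling CD8 T cells and Nos2-positive macrophages, each against the remaining cells of the type. The nuclear subunits (red) sit near 0 in all 3 panels (medians 0.06, 0.10 and 0.04), while glycolysis is lowest in cycling and highest in Nos2-positive macrophages.

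Macrophages with at least 1 Nos2 UMI made up 3.60%, 5.50%, 29.6% and 33.5% of the type. They were deeper than the rest in each library (median 7021 to 11605 against 4853 to 6295 UMIs), as a gate on a single UMI favours deep cells. Their subunit share was 2.45%, 2.19%, 2.13% and 2.30%, against 2.52%, 2.27%, 2.23% and 2.38% in Nos2-negative macrophages, so it was lower in each library. In edgeR 1 of 81 subunits was higher (5.16% of all genes), Cox7c by 0.16 ± 0.046 (adjusted p = 0.0441), and 1 was lower (2.34%), Cox6b2 by -0.89 ± 0.22 (adjusted p = 0.018). The median subunit change in this fit was 0.04, and 60 of 81 were positive. That sign is the reverse of the difference in the share of UMIs, which does not carry the scaling of the fit. The reason was not tested. Of the other lists, 11 of 16 glycolysis genes and 5 of 12 modulators of respiration, a list that holds Nos2 itself, were higher, and 4 of 12 mitochondrially encoded subunits were lower, such as mt-Nd1 (-0.19 ± 0.047, adjusted p = 0.0195). The Cox7c call was lost without control 1, control 2 or LNP-Sirpa 1 and with at least 2 Nos2 UMIs as the threshold, and the Cox6b2 call without control 2 or LNP-Sirpa 1. Without LNP-Sirpa 2, 6 subunits were higher (Atp5md, Cox7a2, Cox7c, Ndufa4l2, Ndufa6 and Ndufb1).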

How the data were processed

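Single-cell RNA was measured in 2 control and 2 LNP-Sirpa libraries with the DNBelab C Series kit, and 4 oligo libraries were not analysed here. The authors deposited 1 matrix of UMI counts per library, made with PISA v1.0 per the file headers, with STAR 2.5.1b and GRCm39 per the submitters' processing notes. How PISA treated multi-mapped reads is not given in the sources used here. A cell was kept if it had at least 500 UMIs and 300 genes and no more than 15% of its UMIs were mitochondrial. Types were gated by marker UMIs. No doublet caller was run, and cells with markers of several types beyond set limits were left ungated. The dendritic, T, NK and fibroblast gates admitted macrophage markers below 40 UMIs per 10000. The neutrophil gate asked for at least 2 times as many neutrophil as macrophage marker UMIs. The NK gate asked for fewer UMIs of T than of NK markers. The subunits and gene lists were chosen with earlier results of these data known, and the gate numbers were revised after these data, subunit shares included, had been seen, on markers, ungated cells and depth.

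Counts were summed per library and type, with at least 20 cells each. The sums by cycling and Nos2 state had no such minimum, and that of control 1 cycling CD8 T cells held 5 cells. CPM are UMIs divided by the total of the sum and scaled. They do not carry the scaling factors of the fits, so a ratio of CPM can differ in size from the log2 change printed beside it. Fits used edgeR 4.0.16 (quasi-likelihood, TMM, filterByExpr, Benjamini-Hochberg over all genes tested, 0.05) in R 4.3.3, and were tested on simulated data. Log2 changes carry an SE taken from the F statistic. Alternatives used DESeq2 1.42.0 with its size factors, no low-count filter, other gates, a replicate block and each library left out. Genes were named by a set list of subunits plus, in each comparison, up to 3 called subunits per complex with the smallest p and the largest rise and fall, and up to 3 called genes of other lists in macrophages. Atp5a1 and Ndufb1, outside the set list and not called after treatment, were also named there, with changes of 1 sign in all 8 types. Promoters are RefSeq entries on GRCm38.p6, a different build from that of the matrices, matched by symbol for 67 of the 85 genes. The values of 1 gene in the set are not reported here.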

Additional observations from a re-analysis of the deposited data

How the results depend on the processing

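The number of subunits called after treatment moved from 0 to 1 in macrophages with DESeq2, with no filter on low counts and in the monocyte subset alone, from 0 to 1 in fibroblast-marked cells with DESeq2 and with no filter, and from 0 to 1 in CD8 T and regulatory T cells with no filter. In NK cells it moved from 1 to 0 with DESeq2 and with the replicate block. Same-numbered libraries deviated together with correlations of -0.119 to 0.107 by type, so the numbers are not shown to pair the samples, and the replicate block changed no other count of treatment calls. A crossed replicate block, added after the data were seen, gave 1 call in CD8 T cells. Leaving out a library left 1 library in a group of the treatment fits, so medians are given for these fits. Their calls are not counted here, although some of these fits called subunits where the main fit called none. The subunit median then ran from -0.150 to 0.228 in macrophages, -0.335 to -0.162 in dendritic and -0.184 to -0.110 in NK cells. It ran from -0.707 to 0.361 in neutrophils, -0.121 to 0.226 in CD8 T and -0.188 to -0.0485 in regulatory T cells. In other T and fibroblast-marked cells it ran from -0.212 to 0.0009 and from -0.136 to 0.120. The interaction median in neutrophils ran from -0.494 to 0.713. Cox4i1 in macrophages had a change of -0.05, which ran from -0.25 without LNP-Sirpa 2 to 0.13 without LNP-Sirpa 1, and was 0.0017 with the stricter gate.

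Against macrophages, with no filter the higher calls fell to 2 in dendritic, 1 in CD8 T, 0 in other T, 2 in NK and 12 in fibroblast-marked cells, and the lower calls became 13 in dendritic and 11 in NK cells. With the control libraries alone the higher calls were 11 in dendritic and 0 in other T cells, and the lower calls 2 in dendritic, 18 in neutrophils, 4 in CD8 T, 11 in regulatory T, 13 in other T, 2 in NK and 8 in fibroblast-marked cells. With the LNP-Sirpa libraries alone, added later, the higher calls were 2 in dendritic, 3 in CD8 T, 5 in NK and 14 in fibroblast-marked cells, the lower calls 11 in CD8 T cells, and the higher calls of Nos2-positive macrophages 0, as with at least 2 Nos2 UMIs (0). With the higher neutrophil threshold, added later, higher and lower calls were 9 and 2 in dendritic, 18 and 5 in CD8 T, 1 and 24 in regulatory T, 1 and 26 in other T, 30 and 4 in NK and 51 and 2 in fibroblast-marked cells. DESeq2 size factors gave 8 higher calls in CD8 T and 1 in regulatory T cells. Leaving out mitochondrial and ribosomal genes gave 3 in CD8 T and 13 in fibroblast-marked cells. The stricter gate gave 3 in CD8 T, 8 in NK and 14 in fibroblast-marked cells. Leaving out each library gave higher calls of 4 to 5 in dendritic, 2 to 3 in CD8 T, 0 to 1 in other T, 5 to 6 in NK and 11 to 15 in fibroblast-marked cells, and lower calls of 2 to 9, 11 to 17, 27 to 37, 6 to 8 and 11 to 19, with 36 to 59 in neutrophils and 27 to 38 in regulatory T cells. It gave 9 to 23 higher and 1 to 6 lower calls in cycling macrophages, 0 to 6 and 0 to 1 in cycling CD8 T cells and 0 to 6 and 0 to 1 in Nos2-positive macrophages. The causes of these moves were not tested. Isoform shares without each library were added after the data were seen. Depth limits the rare isoforms and the small types, whose sums start at 93656 UMIs.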
